A study of Mus musculus with 4 samples.

Results

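Sco2 and 6 related genes that build cytochrome oxidase, the terminal enzyme of the mitochondrial respiratory chain, were examined in tibialis anterior muscle of dystrophic mice. The members were Sco1, Sco2, Cox10, Cox11, Cox15, Cox17 and Surf1, taken as all probe sets whose only gene symbol in the platform annotation was one of these names. This gave 14 of 34945 single-gene probe sets and 7 of 18193 genes. The family was chosen by its signal values, because Sco2 was much lower in mdx/MMP-2 null muscle at 3 months, so the Sco2 values of that contrast are a description and support nothing. Each group had 1 Affymetrix mouse expression array, 4 in all: mdx/MMP-2 null at 3 months, mdx at 3 months, mdx/MMP-2 null at 1 month and mdx at 1 month. All 4 groups carry the mdx mutation, which removes dystrophin and models Duchenne muscular dystrophy, on the C57BL/6J strain; the null groups (genotype mdx/MMP-2-/-) also lack matrix metalloproteinase 2, a secreted gelatinase. The sources used here state neither the sex of the mice, nor the construction of the null allele, nor whether RNA of several animals was pooled, and there was no array of muscle with dystrophin.

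Cytochrome oxidase needs copper and heme A to work, and neither is inserted without dedicated helper proteins. Cox17 carries copper in the space between the mitochondrial membranes and hands it to Sco1 and Sco2, which load the copper centre of the second catalytic subunit, and to Cox11, which serves the copper centre of the first. Cox10 and Cox15 make heme A from protoheme in successive steps, and Surf1 acts early in the assembly of the first catalytic subunit. In people, inherited loss of SCO2, SCO1, COX10, COX15 or SURF1 function causes cytochrome oxidase deficiency that affects heart, muscle, liver or brain, and SCO2 is a known transcriptional target of p53.

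The values below are MAS5 signals on a linear scale, quantile scaled over the 4 arrays. Signals under a floor of 17.4, the 50th percentile of all probe sets that are not controls, were raised to it before any log2 difference was taken. Where a gene had several such probe sets, the one brightest on average (mean log2) stands for it, and 12801 genes were above the floor in at least 1 array. All 7 members were among them, through 11 of their 14 probe sets, and 9 of the 14 were above it in all arrays. With 1 array per group no difference between arrays has a test, so "higher" and "lower" describe those arrays and their small number limits the precision. The 3'/5' signal ratio of Actb, which reflects RNA integrity and labelling, was 2.09 and 2.36 in null and mdx at 3 months and 1.05 and 1.19 in null and mdx at 1 month. The same ratio of Gapdh differed less between ages, with 0.94 and 0.94 in null and mdx at 3 months and 0.85 and 0.88 at 1 month. In the contrasts between ages, age and the difference in Actb ratio cannot be told apart. Mmp2, the targeted gene, had scaled signals of 40.9 in null and 805 in mdx at 3 months, and of 24.7 in null and 985 in mdx at 1 month, which was low where the labels say null. The 8 skeletal muscle markers, among them Ckm and Acta1, were above the floor in all 4 arrays.

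The promoters of Sco2 and of its paralogue Sco1 are printed because these genes encode the closest pair of the family and their signals lay on opposite sides at 3 months. Both windows run from 250 bases before to 50 bases after the annotated start, on the strand of the gene, and come from RefSeq on GRCm38.p6. Capitals mark short motifs searched on both strands: CACGTG (an E-box), CCGGAAG (an ETS core, the kind bound by GABP), GGGCGG (an Sp site) and GCGCA followed by any base and GCGC (an NRF1 core).
Sco2, chr15:89373842-89374141, minus strand: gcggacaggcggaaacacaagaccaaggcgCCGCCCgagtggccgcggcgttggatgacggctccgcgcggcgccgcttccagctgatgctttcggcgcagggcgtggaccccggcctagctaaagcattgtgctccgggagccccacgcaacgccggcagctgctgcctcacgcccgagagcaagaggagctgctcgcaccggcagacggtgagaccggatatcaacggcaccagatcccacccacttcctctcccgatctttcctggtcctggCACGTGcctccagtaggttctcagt
Sco1, chr11:67052420-67052719, plus strand: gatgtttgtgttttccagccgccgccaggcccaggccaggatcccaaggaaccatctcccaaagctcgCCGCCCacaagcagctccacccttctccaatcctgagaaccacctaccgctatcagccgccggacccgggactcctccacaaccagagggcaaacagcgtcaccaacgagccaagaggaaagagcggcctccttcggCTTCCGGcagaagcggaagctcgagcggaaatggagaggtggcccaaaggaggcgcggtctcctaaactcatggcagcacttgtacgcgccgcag
Of the 7 members 6 had a promoter entry; Cox17 had none. The Sco2 window held an E-box at base 276 of 300, just past the start of the gene, and no other member's window did; 7.24% of 27025 promoters of the same length held that motif. The ETS core was present in 4 of the 6 windows (Sco1, Cox10, Cox15 and Surf1) and absent from those of Sco2 and Cox11, against 9.12% of all promoters. The Sp motif was in 5 of the 6, all but Cox11, against 35.9% of all, and the NRF1 core in 0 of 6, against 4.78%. The marked motifs do not overlap. These matches describe letters in the windows and nothing more.

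Sco2 had 1 probe set. Its scaled signal was 16.4 in null and 103 in mdx at 3 months, and 63.3 in null and 93.8 in mdx at 1 month. The null array at 3 months was thus the only array of the 4 at the floor, and the other 3 lay between 63.3 and 103. Against the floor, Sco2 was at least 5.9-fold lower in null than in mdx at 3 months and 1.48-fold lower at 1 month. Within null it was at least 3.63-fold lower at 3 months than at 1 month, and within mdx it was 1.1-fold higher. As deposited, before any scaling, the signals were 18.5 in null and 88.6 in mdx at 3 months, and 65.8 in null and 87.3 in mdx at 1 month. The same array was lowest before scaling, although the null array at 3 months was the brightest of the 4, with a 2% trimmed mean of 122 against 90.3 for mdx at 3 months. Among all 12801 genes only Mmp2 was further down in null at 3 months. In a bulk sample fewer cells of a type and less RNA per cell cannot be told apart.

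**Figure D1:**
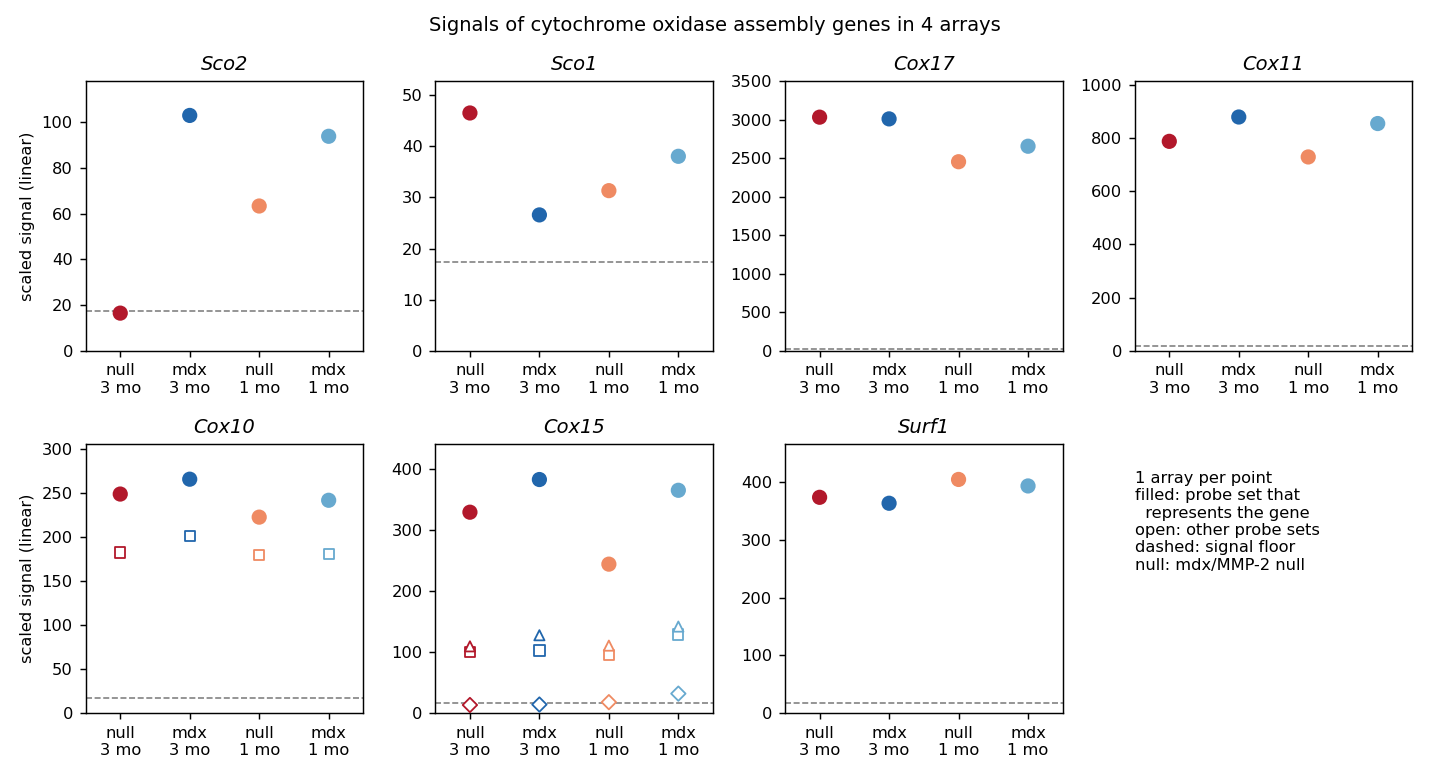
Scaled signal (linear axis from 0) of each member in the 4 arrays, 1 point per array and probe set; filled points are the probe set that represents the gene, open points other probe sets above the floor in at least 1 array, and the dashed line is the floor of 17.4. Sco2 in null at 3 months (16.4) sits on the floor while the other 3 arrays lie between 63.3 and 103, and Sco1 is highest in that same array (46.5).

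Sco1, the paralogue that also delivers copper to the second catalytic subunit, had the opposite order at 3 months. Its single probe set gave 46.5 in null and 26.6 in mdx at 3 months, and 31.3 in null and 38.1 in mdx at 1 month. The null array at 3 months was the highest of the 4 for Sco1 and the lowest for Sco2. Sco1 was 1.75-fold higher in null at 3 months and 1.21-fold lower in null at 1 month. Between 3 months and 1 month it was 1.49-fold higher at 3 months in null and 1.43-fold lower at 3 months in mdx. All 4 signals were low, though above the floor of 17.4.

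The other copper carriers lay closer together between genotypes at 3 months. Cox17, which supplies Sco1, Sco2 and Cox11, had signals of 3035 in null and 3013 in mdx at 3 months, and of 2456 in null and 2658 in mdx at 1 month. These are differences of 1.01-fold and 1.08-fold. Cox11, the copper chaperone of the first catalytic subunit, had 788 in null and 879 in mdx at 3 months, and 729 in null and 855 in mdx at 1 month. Cox11 was lower in null at both ages, by 1.12-fold and 1.17-fold. Each gene had a further probe set that stayed below the floor in all 4 arrays and carries no information.

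Of the heme A enzymes, Cox15 was the lower in null at 1 month. Its representative probe set gave 329 in null and 382 in mdx at 3 months, and 244 in null and 365 in mdx at 1 month. The null array at 1 month was the lowest for Cox15, 1.49-fold below mdx of that age. All 4 Cox15 probe sets lay the same way in that contrast, with log2 differences from -0.82 to -0.36, but they share the same 2 RNA samples. At 3 months the differences of the 4 ranged from -0.22 to 0, the last from a probe set at the floor in both arrays. Cox10, which makes heme O for Cox15, had 248 in null and 265 in mdx at 3 months, and 222 in null and 241 in mdx at 1 month. Its second probe set above the floor gave 182 in null and 201 in mdx at 3 months, and 179 in null and 180 in mdx at 1 month; the remaining one stayed below the floor.

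Surf1, the assembly factor of the first catalytic subunit, differed least over the 4 arrays. It had 373 in null and 363 in mdx at 3 months, and 404 in null and 393 in mdx at 1 month. Its genotype differences were 1.03-fold at both ages. Its age differences were 1.08-fold, lower at 3 months in either genotype; in null the log2 difference of -0.11 became 0.20 with median scaling and 0.26 with unscaled signals.

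**Figure D2:**
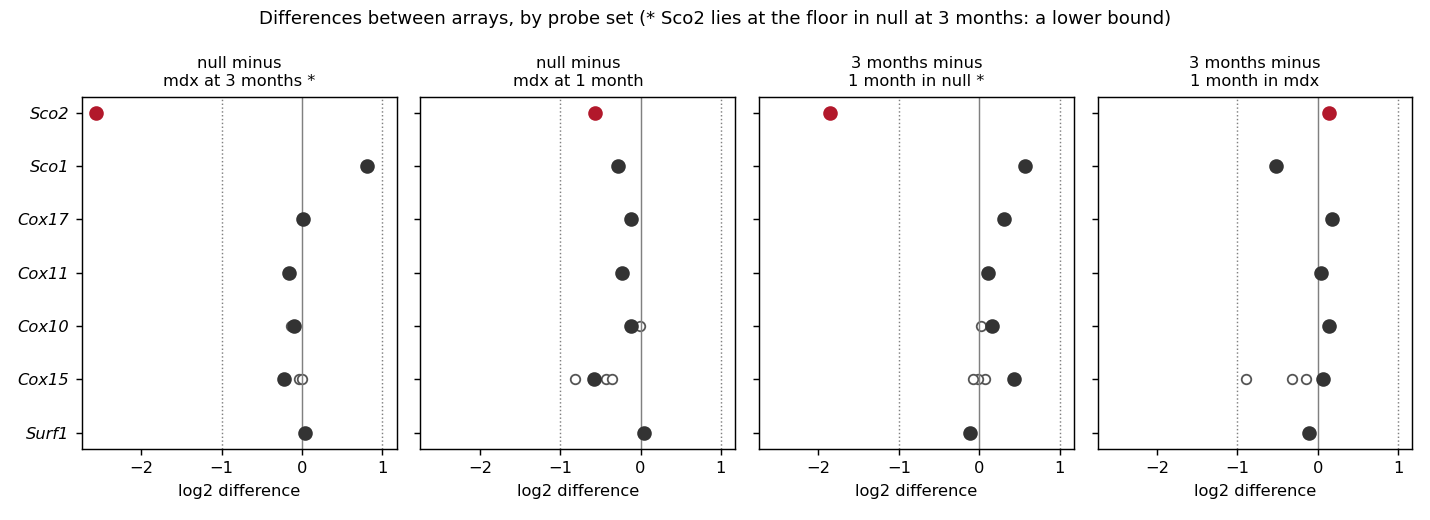
Log2 difference of each member in the 4 contrasts (horizontal axis), with filled points for the representative probe set, open points for other probe sets above the floor, and dotted lines at 2-fold. Sco2 passes 2-fold in null minus mdx at 3 months (-2.56) and in 3 months minus 1 month in null (-1.86), both lower bounds on the size, and no other member passes it in any contrast.

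In the genotype contrast at 3 months 1 of 7 members, Sco2, was at or past 2-fold, as were 1.6% of all genes; the rule used that contrast, so nothing is read from it. At 1 month 0 of 7 passed, against 1.15% of all genes. Between ages, 1 of 7 (Sco2) passed in null, against 2.69% of all genes, and 0 of 7 in mdx, against 2.52%. Each contrast between ages shares its 3-month array with the contrast that chose Sco2, and contrasts that share an array are not independent. At 1 month 6 of 7 members were lower in null, with a median log2 difference of -0.23, where 48.3% of all genes were lower and the median of all genes was 0. With median scaling all 7 were lower, and under the other scalings tried, no scaling included, 6 were. At 3 months 4 of 7 were lower, where 48.1% of all genes were lower, with a median of -0.09 against 0 for all genes. With trimmed mean and median scaling 5 members were lower. With the deposited signals unscaled, 6 of 7 were higher at 3 months and Sco2 was the exception; the median of all genes then stood at 0.41. The log2 difference of Sco2 at 3 months was between -2.73 and -2.26 over the 5 scalings.

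**Figure D3:**
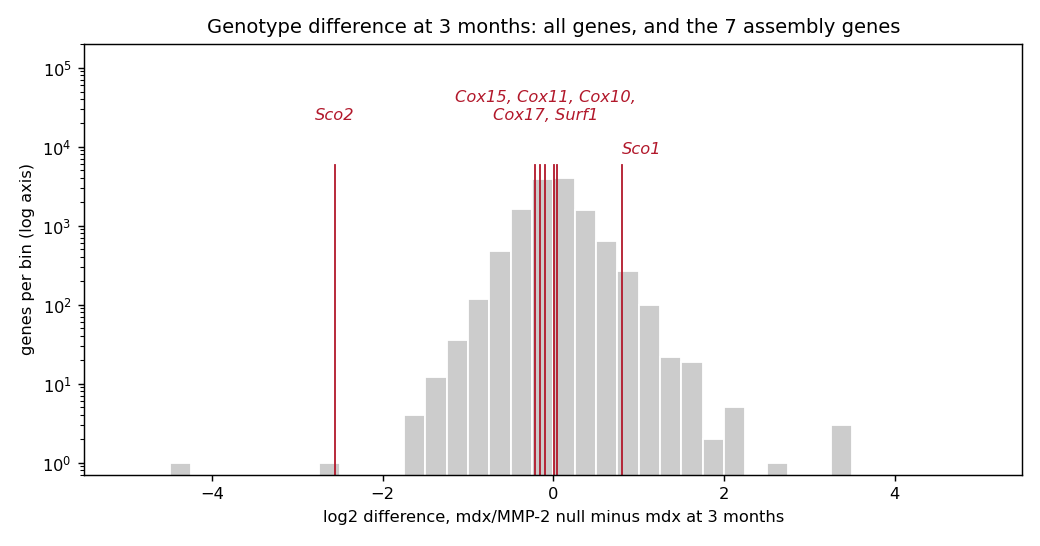
Number of genes (log axis) per bin of 0.25 in the log2 difference of null minus mdx at 3 months, for 12801 genes, with red lines at the 7 members. Sco2 (-2.56) lies alone on the left with only Mmp2 beyond it, Sco1 (0.81) lies on the right slope, and the other 5 members lie between -0.22 and 0.04.

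Probe sets of a gene give a rough scale for how far probe sets disagree within these arrays. For 4309 genes with at least 2 probe sets above the floor in all arrays, the gap between the log2 differences of the 2 brightest had a median of 0.22 and a 95th percentile of 0.79 in the genotype contrast at 3 months, and 0.21 and 0.79 at 1 month. Cox10, Cox11, Cox15, Cox17 and Surf1 had differences smaller than the 95th percentile at both ages. Sco1 at 3 months (0.81) was just above it with the main settings, and its difference at 1 month (-0.28) was inside it. At 3 months the Sco1 value was 0.62 with the floor at the 60th percentile and 0.78 with a pseudocount and no floor. With its single dim probe set Sco1 is not among the 4309 genes. The gaps therefore cannot place it outside measurement error. They do not hold the spread between mice, since all probe sets of an array share its RNA.

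Genotype and age were also fitted as additive terms over the 4 arrays with limma for the 6 members other than Sco2. Its standard errors rest on 1 residual degree of freedom per gene, which holds the genotype-by-age interaction and not the spread between mice. The genotype term lay between -0.4 ± 0.17 (SE) for Cox15 and 0.26 ± 0.3 for Sco1, and its adjusted p over all genes was 0.98 or higher for all 6. The age term, 3 months minus 1 month, lay between -0.11 ± 0.15 for Surf1 and 0.25 ± 0.17 for Cox15, and its smallest adjusted p among the 6 was 0.53, for Cox17. The Cox15 age value rests on 1 of its 4 probe sets: between ages 2 were higher and 2 lower at 3 months in null, and 1 was higher and 3 lower in mdx. With the mean of all its probe sets the age difference in mdx was -0.32, against 0.07 for the representative set. The fit called 0 of 12801 genes for either term, a share of 0%, with 560 genes at an unadjusted p under 0.05 for genotype and 1756 for age. The model therefore gave no call for any member. Nor did it call the targeted gene Mmp2, whose log2 differences were -4.30 at 3 months and -5.32 at 1 month. A p that misses the threshold does not show that the arrays were alike.

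The genotype difference was not the same at both ages for the Sco pair. On the log2 scale the difference at 3 months minus that at 1 month was -1.99 for Sco2 and 1.09 for Sco1. For Cox15 it was 0.36, for Cox10, Cox11 and Cox17 it lay between 0.02 and 0.12, and for Surf1 it was 0.00. Of all 12801 genes 372 were at or past 1 in this quantity and 216 at or past -1. The Sco2 value includes both 3-month arrays of the contrast that chose it.

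Sco2 lies in a crowded stretch of chromosome 15. In the RefSeq table for GRCm38.p6, Tymp, which encodes thymidine phosphorylase and lies on the same strand, covers 2261 of the 2262 bases of the Sco2 gene, and Ncaph2, a condensin subunit gene on the opposite strand, covers 1221 of them. The Sco2 probe set carries the suffix _s_at, given to sets whose probes can match more than a single transcript, so Sco2 and Tymp transcripts cannot be told apart here if they share its probes; no probe set named for Tymp alone was analysed here. Ncaph2 had signals of 295 in null and 284 in mdx at 3 months, and of 246 in null and 250 in mdx at 1 month. Of its 3 further probe sets, 2 were lower in null at 3 months. Lmf2, further along, had 146 in null and 111 in mdx at 3 months and 167 in null and 155 in mdx at 1 month. Odf3b had 22.1 in null and 20.7 in mdx at 3 months and 33.8 in null and 24.8 in mdx at 1 month, and Adm2 had 26.3 in null and 22.2 in mdx at 3 months with both 1-month arrays below the floor. By its representative probe set none of these 4 neighbours was lower in null at 3 months. Miox and Syce3 were at the floor in all arrays, and Mir6959, Klhdc7b and Cpt1b had no single-gene probe set here. A probe set that names Cpt1b together with Chkb and Gm44502 was lower in null at 3 months, with 769 in null and 1004 in mdx, and had 1120 in null and 1058 in mdx at 1 month.

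The genes with the 4-array profile most like that of Sco2, by Euclidean distance between mean-centred log2 signals, were Ust (0.88), Gimap1 (0.97), Stxbp2 (1.04), Nr4a3 (1.06) and Gli2 (1.1). Nr4a3, an orphan nuclear receptor, had 101 in null and 337 in mdx at 3 months and 184 in null and 195 in mdx at 1 month. Gimap1 had 17.9 in null and 43.8 in mdx at 3 months and 45.5 in null and 47.5 in mdx at 1 month. For Ust and Stxbp2 the null array at 3 months was below the floor and another probe set of the gene lay the opposite way in that contrast. The Sco2 profile holds the arrays of the contrast that chose it, so all 5 being lower in null at 3 months follows from how they were picked. No assembly factor was among these 5, which carries no information with so few genes taken out of 12801.

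Further genes of cytochrome oxidase assembly were listed as well. Sco2 was chosen for the size of its difference, so their sizes are not set against it. Of 23 listed, 17 were measured, and 0 were at or past 2-fold in any contrast. Between 1.15% and 2.69% of all genes passed in a contrast, so a count of 0 is near that share. At 3 months 13 of the 17 were lower in null, with a median log2 difference of -0.11, where 48.1% of all genes were lower. With unscaled signals 14 were higher, but the median of the 17 still lay 0.12 below that of all genes. Cox19, a copper protein like Cox17, had 374 in null and 559 in mdx at 3 months, and 530 in null and 513 in mdx at 1 month. Oxa1l, which inserts proteins into the inner membrane, had 79.2 in null and 115 in mdx at 3 months, and 82.2 in null and 139 in mdx at 1 month, with another probe set the opposite way at 3 months. Tmem177 had 70.3 in null and 47.3 in mdx at 3 months, also with a probe set the opposite way, and 46.8 in null and 46.2 in mdx at 1 month. At 1 month 11 of the 17 were lower in null, with a median of -0.03; with unscaled signals 10 were higher.

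With quantile scaling the enzyme's own nuclear subunits differed little, but at 3 months this depended on the scaling. Of 17 listed, 16 were measured and 0 passed 2-fold in any contrast, near the 1.15% to 2.69% of all genes that did. Their median log2 difference was -0.05 at 3 months, with 10 of 16 lower in null, and 0.01 at 1 month, with 10 of 16 higher. Of all genes 48.1% were lower at 3 months and 46.8% higher at 1 month. With unscaled signals all 16 were higher in null at 3 months, and their median lay 0.26 below that of all genes. With trimmed mean scaling 13 of 15 were lower in null at 3 months, with a median of -0.30. Relative to all genes the 3-month median was -0.27 with median scaling and -0.12 with loess. With median scaling 13 were lower at 1 month. Cox5a had 12183 in null and 10926 in mdx at 3 months and 10760 in null and 10602 in mdx at 1 month, with another probe set the opposite way at each age. Cox7c had 43.4 in null and 52.96 in mdx at 3 months and 40.03 in null and 35.3 in mdx at 1 month. These signals were far below those of Cox5a, and the other Cox7c probe set stayed below the floor in all arrays. Cox4i2, an isoform of lung, was near the floor in all 4 arrays, with 22.2 in null and 15.6 in mdx at 3 months and 17.5 in null and 14.8 in mdx at 1 month.

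Copper handling genes gave 2 genotype differences at or past 2-fold, both at 3 months and both higher in null, or 2 of 10 measured where 1.6% of all genes passed. The list was chosen with earlier results of these data known, so this share is a description and no enrichment is read from it. The metallothioneins Mt1 and Mt2, which bind copper and zinc, had 7621 and 6796 in null and 2617 and 2407 in mdx at 3 months. At 1 month they had 2950 and 3142 in null and 2944 and 3290 in mdx. Slc31a1, the main copper importer, had 61.1 in null and 82.6 in mdx at 3 months and 49.6 in null and 67.2 in mdx at 1 month, with another probe set the opposite way at 3 months. Slc31a2 had 47.0 in null and 27.6 in mdx at 3 months, and 44.6 in null and 57.7 in mdx at 1 month, with another probe set the opposite way at 1 month. Of 10 genes measured, 6 were higher in null at 3 months, with a median of 0.05, and 4 at 1 month, with a median of -0.03. With unscaled signals all 10 were higher at 3 months and 7 at 1 month; with trimmed mean, median and loess scaling 5 were higher at 3 months.

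Assembly factors of the other respiratory complexes were mostly lower in null at 3 months (23 of 26, median log2 difference -0.18), where 48.1% of all genes were lower. At that age 0 of 26 passed 2-fold, near the 1.6% of all genes that did. At 1 month 15 of 26 were higher, with a median of 0.06. Tmem70, an assembly factor of ATP synthase, had 838 in null and 1139 in mdx at 3 months and 1265 in null and 1275 in mdx at 1 month. Ndufaf6 and Nubpl, factors of complex I, had log2 differences of -0.45 each at 3 months. Mitochondrial biogenesis genes numbered 10, and all 10 were lower in null at 3 months (median -0.19), against the same 48.1% of all genes. At 1 month 6 were lower (median -0.02), against 48.3% of all genes. Ppargc1a, the coactivator that drives mitochondrial biogenesis, had 346 in null and 537 in mdx at 3 months and 435 in null and 300.04 in mdx at 1 month, and 4 further probe sets had the same direction at both ages. Ppargc1b and Tfb1m had log2 differences of -0.39 and -0.32 at 3 months. With unscaled signals 23 of 25 assembly factors and 9 of 10 biogenesis genes were higher in null at 3 months, and relative to all genes their medians were -0.16 and -0.19. With median scaling 17 of 26 assembly factors were lower at 1 month.

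Targets of p53, listed because human SCO2 is such a target, lay on both sides of 0. Of 16 measured at 3 months, 9 were higher and 6 lower in null, with a median log2 difference of 0.02. At that age 0 were past 2-fold, near the 1.6% of all genes that were. At 1 month 8 were higher and 6 lower, with a median of 0.03; with median scaling 12 were lower. With unscaled signals 15 were higher at 3 months. Gadd45a had 897 in null and 455 in mdx at 3 months and 483 in null and 543 in mdx at 1 month. Pmaip1 had 37.4 in null and 19.1 in mdx at 3 months, and 30.2 in null and 30.8 in mdx at 1 month. Cdkn1a, the cell cycle inhibitor p21, had 740 in null and 515 in mdx at 3 months and the same 578 in null and in mdx at 1 month.

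**Figure D4:**
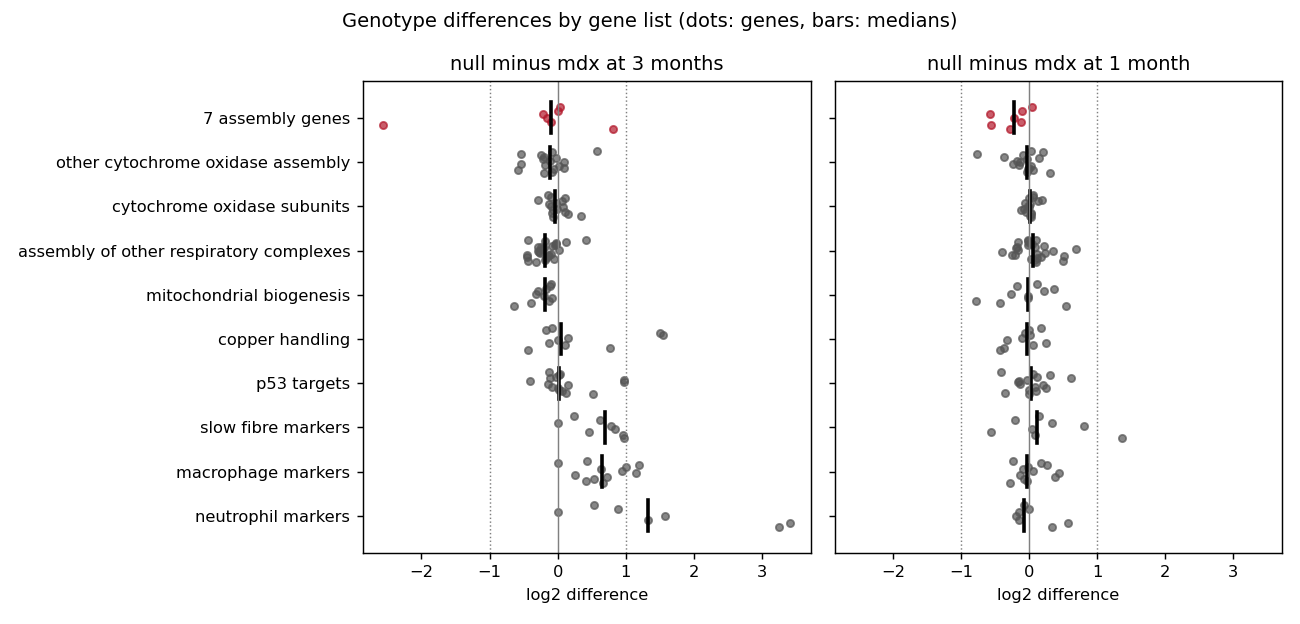
Log2 difference of null minus mdx at 3 months (left) and at 1 month (right) for each measured gene (dots) of 10 gene lists, with bars at the list medians and dotted lines at 2-fold. Apart from Sco2, genes of oxidase assembly, oxidase subunits, other assembly factors and mitochondrial biogenesis stay inside 2-fold at both ages. Of all genes 1.6% pass it at 3 months and 1.15% at 1 month. Slow fibre, macrophage and neutrophil markers are shifted to the right at 3 months.

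Markers of other cells and fibre types differed between the arrays that carried the Sco2 difference. Of all genes 47.6% were higher and 48.1% lower in null at 3 months. At 3 months all 12 macrophage markers were higher in null (summed signal 11589 in null and 7632 in mdx), and Itgam was the marker at the floor in at least 1 array. At 1 month their sums were 9620 in null and 10312 in mdx, with 5 of 12 higher. Neutrophil markers summed to 720 in null and 109 in mdx at 3 months, and to 227 in null and 208 in mdx at 1 month. Of these, Csf3r, Camp, Lcn2 and Mmp8 were at the floor in at least 1 array, Lcn2 in all but null at 3 months, and Cxcr2 and Ltf in all 4. All 8 slow fibre markers were higher in null at 3 months, with sums of 6519 in null and 4441 in mdx, against 5545 in null and 5088 in mdx at 1 month. Fibroblast markers summed to 26342 in null and 24634 in mdx at 3 months, with 6 of 7 higher, and to 32967 in null and 32707 in mdx at 1 month. Endothelial markers summed to 1026 in null and 1092 in mdx at 3 months, with 6 of 8 lower, and to 1800 in null and 1615 in mdx at 1 month. The 9 fast fibre markers summed to 116750 in null and 118360 in mdx at 3 months and the 8 skeletal muscle markers to 84893 in null and 86722 in mdx. With trimmed mean, median and loess scaling all 9 and all 8 were lower in null at 3 months. With unscaled signals 8 of 9 fast fibre markers and all 8 skeletal muscle markers were higher, as were 6 of 8 endothelial markers. The part of these markers in the Sco2 and Sco1 differences was not tested.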

How the data were processed

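Total RNA of tibialis anterior was labelled with biotin and hybridised to 1 Affymetrix array per group, per the labels' protocols. The intensity values were deposited by the authors as MAS5 signals per probe set on a linear scale, which the submitters' processing notes attribute to Affymetrix Expression Console; versions, scaling settings and detection calls are not given in the sources used here. Columns were not on a common scale, with 2% trimmed means of 122 (null, 3 months), 90.3 (mdx, 3 months), 97.5 (null, 1 month) and 91.3 (mdx, 1 month).

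Of 45101 probe sets, 45037 were not controls. Of these 34945 carried 1 gene symbol, 932 several and 9160 none here; genes were named from these symbols, 34741 of them matched by gene identifier, which changed 0. Quantile normalization (limma 3.58.1, R 4.3.3) came first, then the floor and the log2 scale; 12801 of 18193 genes were kept. The additive fit used lmFit and eBayes with Benjamini-Hochberg adjustment at 0.05. It was tried on simulated data with the same noise for every gene, which these arrays need not share. Tables were made with Python 3.11.15, numpy 2.4.6 and pandas 2.3.3, and figures with matplotlib 3.10.9.

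The members and lists were chosen with earlier results of these data known. Named were all members, the 3 genes of each list furthest from 0 in the genotype contrast at 3 months, the 5 nearest profiles (predicted genes passed over), 5 neighbours on each side and Mmp2. Marker lists are given by sums and counts. Slc31a1 was named, and probe set gaps were added, after their values were seen.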

Additional observations from a re-analysis of the deposited data

Results flagged for a closer look

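Sco1 had genotype differences of opposite sign at the 2 ages: it was higher in null than in mdx at 3 months (log2 difference 0.81) and lower in null at 1 month (-0.28), so the difference at 3 months minus that at 1 month was 1.09 on the log2 scale. The gap was not tested, since each group held 1 array. All 4 signals of the Sco1 probe set lay between 26.6 and 46.5. Of all genes 290 had a larger positive value of this quantity.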

How the results depend on the processing

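No paired analysis was possible because each group held 1 array, and leaving out an array removes a group. Across the 212 alternative values for members other than Sco2 (4 contrasts under the listed settings), 0 moved by 1.5-fold or more. This count passes over changes of sign in small differences. With unscaled signals at 3 months Cox10 went from -0.09 to 0.36, Cox11 from -0.16 to 0.27 and Cox15 from -0.22 to 0.24. The Cox15 age difference in mdx went from 0.07 to -0.32 with the mean of its probe sets. For Sco2, 30 of 32 stayed within 1.5-fold. With the floor at the 60th percentile its log2 difference was -1.77 at 3 months and -1.07 between ages in null, because the floor itself bounds the size. Without _x_at and _s_at probe sets Sco2 has no value, so 0 members passed 2-fold at 3 months and 0 between ages in null. Cox17 then has no value above the floor either, since its main probe set also carries the suffix _s_at. The main Cox15 probe set carries _x_at, and without it the Cox15 log2 difference between ages in null was -0.02, against 0.43. With unscaled signals 2 members passed 2-fold at 3 months (Sco1 joined, at a log2 difference of 1.26), and at a 1.5-fold threshold 2 did.

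Counts of all genes past 2-fold depended on floor, scaling and threshold. In null against mdx at 3 months the main count of 205 became 868 unscaled, 432 and 90 with floors at the 40th and 60th percentile, 709 with a pseudocount and no floor, 109 with the mean of probe sets, and 1209 and 26 at 1.5-fold and 3-fold. At 1 month the main 147 became 320 and 59 with those floors, 586 with the pseudocount, 66 with probe set means, and 906 and 11 at those thresholds. Between ages in null the main 344 became 558 unscaled, 560 and 211 with the floors, 809 with the pseudocount, 191 with probe set means, and 1806 and 53 at the thresholds. Between ages in mdx the main 323 became 583 and 190 with the floors, 874 with the pseudocount, 184 with probe set means, and 1695 and 47 at the thresholds. The share of calls that were higher was 73.7% at 3 months (98.5% unscaled, 84.7% with median scaling), 49.7% at 1 month (78.9% unscaled, 64.5% with trimmed mean scaling), 54.7% between ages in null (83.5% unscaled, 76.8% median, 32.8% trimmed mean) and 38.7% in mdx (20.9% unscaled, 24.0% trimmed mean). The additive fit in limma called 0 genes for genotype in the main setting, 1 with median scaling, with loess, with the floor at the 60th percentile and with a prior that follows signal, and 21 unscaled. For age it called 0, and 11 with median scaling, 1 with the floor at the 60th percentile, 79 unscaled and 130 with a prior that follows signal. The cause of these shifts was not tested.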

Other observations

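Between ages, 8 of 10 mitochondrial biogenesis genes were higher at 3 months than at 1 month in mdx (median log2 difference 0.14), and the other 4 scalings gave 6 or 7. With quantile scaling 48.0% of all genes were higher in that contrast. In null the direction turned with the scaling: 3 of 10 were higher with quantile and loess scaling, 5 with the trimmed mean, 7 with the median and all 10 unscaled. Assembly factors of the other respiratory complexes were lower at 3 months in null in 20 of 26 cases (median -0.26), where 45.7% of all genes were lower. But with median scaling 14 were lower and 11 higher (median -0.04), and unscaled 11 were lower and 14 higher (median 0.01). These contrasts share arrays with the genotype contrasts above and were not tested. Age cannot be told apart in them from the higher Actb ratio of the 3-month arrays given above.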
